A study of Mus musculus with 10 samples.

Results

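The genes described here are the WNT ligands, their receptors, the secreted proteins that modulate them and the factors that pass the signal to the nucleus, 66 of the 19938 genes measured in mouse granulosa cells. Members were chosen by gene symbol, each read by its brightest probe set, and no difference between genotypes entered the rule, though the set was proposed with earlier results of these data known. Of the members, 65 were read by 1 probe set and 1 (Wnt4) by 2. They comprised 19 WNT ligands, 9 R-spondins, LGR receptors and receptor-removing ligases, 15 frizzleds and co-receptors, 11 secreted modulators, 3 genes of AXIN and beta-catenin and 9 TCF/LEF factors and TLE corepressors. The rule also named Tcf7, which was not analysed here.

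WNT proteins are secreted lipid-modified ligands that bind frizzled receptors, with LRP5 or LRP6 as co-receptors for the branch that stabilises beta-catenin. Stabilised beta-catenin enters the nucleus and activates genes through TCF/LEF factors, which TLE corepressors otherwise keep silent. SFRP proteins carry a frizzled-like domain without the membrane anchor, and DKK proteins block LRP5 and LRP6. In the mouse ovary, Wnt4 and Rspo1 direct female gonad development, Fzd4 is needed for a functional corpus luteum, and Fzd1 and Sfrp4 are known as genes that respond to the ovulatory hormone signal.

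Whole-transcript microarrays compared granulosa cells of 2 genotypes. PRKO mice were homozygous for a lacZ knock-in that disrupts both isoforms of the progesterone receptor, whose gene is Pgr, and the controls (PR+/-) were heterozygous for the same insertion, so controls too carried 1 disrupted allele. All mice were pre-pubertal, 21 to 23 days old, received 5 IU of equine chorionic gonadotropin and, 44 to 47 h later, 5 IU of human chorionic gonadotropin (hCG), and cells were taken by puncturing antral follicles 8 h after hCG. Each array held 1 pool of cells from 3 animals, with 5 pools and 15 animals per genotype. The knock-in is not restricted to granulosa cells, so the receptor was missing from every tissue of the PRKO mice. The comparison asks which transcripts depended on the receptor during the ovulatory response.

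Array medians lay between 6.48 and 6.55 on the log2 scale and pairwise correlations between 0.973 and 0.992. Control pools read Pgr at 6.91 ± 0.70 and PRKO pools at 6.45 ± 0.32 (SD over 5 pools), with overlap and a log2 difference of -0.46 that did not pass (limma adjusted p = 0.527). Where its probes lie relative to the lacZ insertion is unknown here, and the reading therefore neither checks nor goes against a label. Listed granulosa markers were all read above the background level of 5.86, a bound set from olfactory receptor genes (7 of 8 listed genes measured). None of the 7 passed, but 6 (85.7%) had an unadjusted p under 0.05 in limma, beside 13.0% of all genes. Log2 differences were 0.60 in Inhba, 0.33 in Amhr2, 0.33 in Gata4, 0.30 in Foxl2 and 0.24 in Inha, whose pools did not overlap. In Fshr the difference was -0.49. Markers of the main cell type thus shifted beside the WNT genes, though none of them passed. With the mean of these markers as a covariate, all 7 members called below kept their calls. That mean joins markers with differences above and below 0, and stood at 10.28 in PR+/- and 10.47 in PRKO. The part of single markers in the WNT differences was not tested. Theca (Cyp17a1, means 9.43 and 9.41) and oocyte markers (Bmp15, 9.49 and 9.37) were read too. Of 29 measured markers of other cell types, 1 passed the test (3.45%, beside 2.46% of all genes), which is no result about these cell types. It was Hhip, a hedgehog-binding protein of the theca list (log2 difference -0.70). In bulk cells, fewer cells of a type and less RNA per cell cannot be told apart.

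The frizzled Fzd1 and the corepressor Tle3 fell in PRKO, and the secreted modulator Sfrp2, the frizzleds Fzd7 and Fzd4 and the TLE family genes Tle2 and Tle5 rose. In total, 7 of 66 members (10.6%) passed a Benjamini-Hochberg adjusted p under 0.05 in limma, against 2.46% of all 19938 genes tested. Of these, 2 were lower, beside 1.71% of all genes, and 5 were higher, beside 0.752%. Among the 54 members not under the background level in both genotypes the share was 13.0%, beside 3.54% of such genes. Genotypes were fully separated in 13 members (19.7%), beside 4.42% of all genes. Of these members, 4 were lower, beside 483 of all 19938 genes (2.42%), and 9 were higher, beside 398 of all 19938 genes. An unadjusted p under 0.05 was found for 18 members (27.3%), beside 13.0% of all genes. Since the set was proposed with results known, these shares describe it and are not independent evidence about it. The median log2 difference was -0.04 over the members and -0.02 over all genes, with 26 members above 0 and 40 below.

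**Figure D1:**
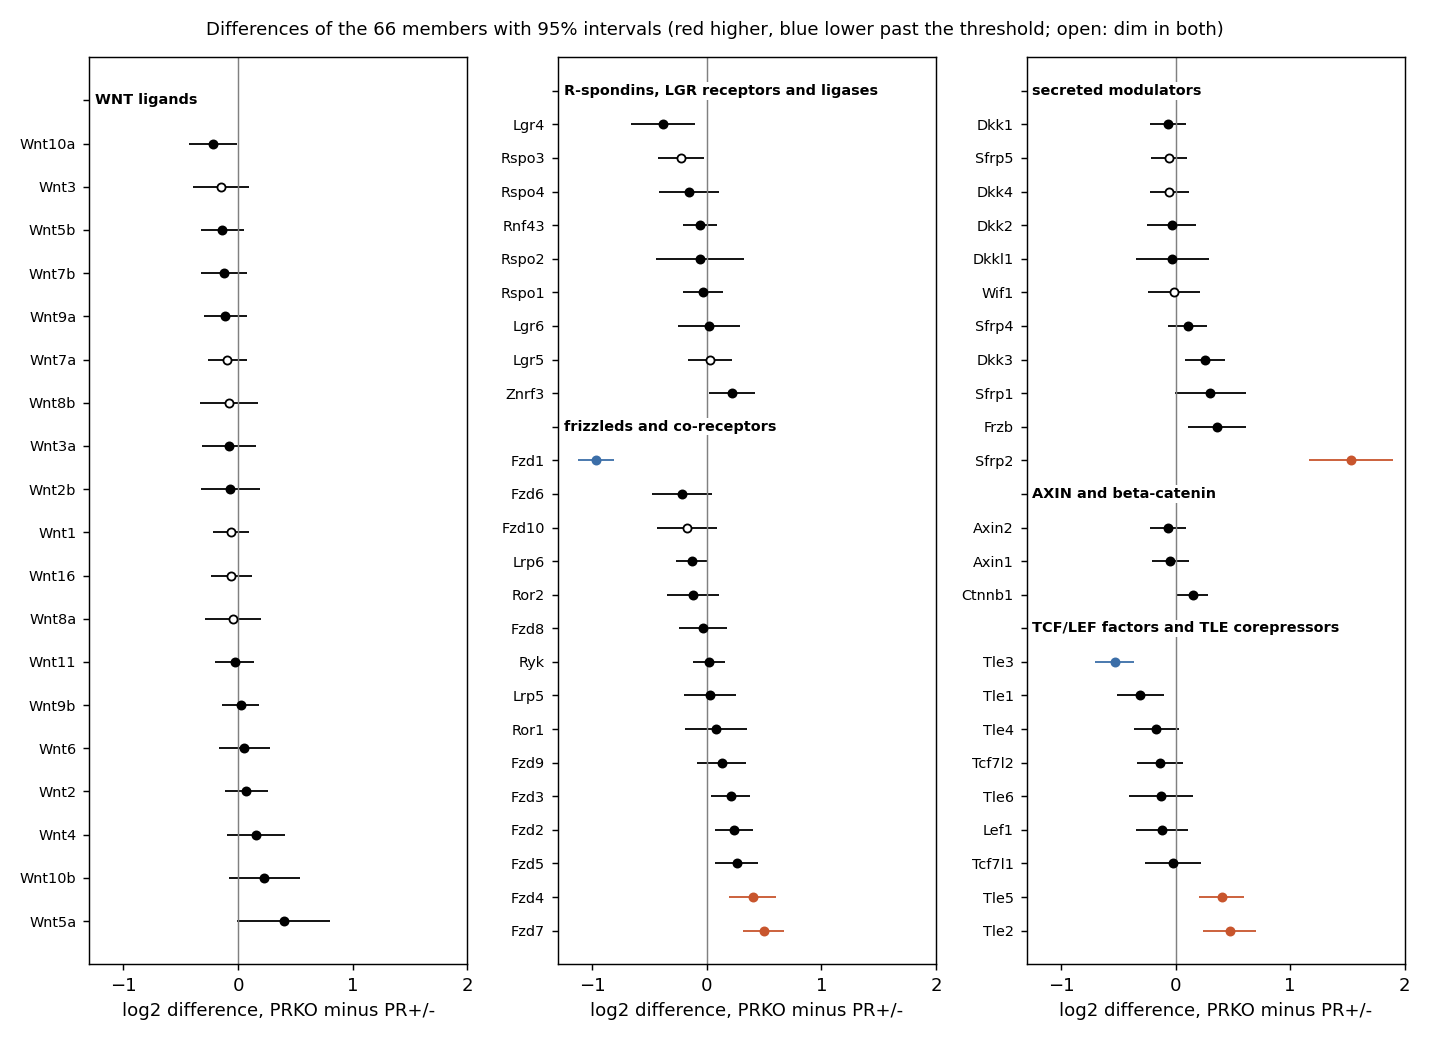
Log2 difference (PRKO minus PR+/-) of each of the 66 members with its 95% interval from limma, grouped by role. Blue marks the 2 members that fell and red the 5 that rose; open points are members read under the background level in both genotypes, and Sfrp2 (1.53) and Fzd1 (-0.97) lie farthest from 0.

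The promoters of the 4 members whose calls held under every setting tried are shown first, because these genes carry the result. Sequences are from RefSeq on GRCm38.p6, the 250 bases before the annotated start, 5′ to 3′ on the gene's strand, and capitals mark CpG dinucleotides. Sfrp2 lies at chr3:83766071-83766320 on the plus strand, Fzd1 at chr5:4758217-4758466 on the minus strand, Fzd7 at chr1:59481897-59482146 on the plus strand and Tle3 at chr9:61372116-61372365 on the plus strand.
Sfrp2: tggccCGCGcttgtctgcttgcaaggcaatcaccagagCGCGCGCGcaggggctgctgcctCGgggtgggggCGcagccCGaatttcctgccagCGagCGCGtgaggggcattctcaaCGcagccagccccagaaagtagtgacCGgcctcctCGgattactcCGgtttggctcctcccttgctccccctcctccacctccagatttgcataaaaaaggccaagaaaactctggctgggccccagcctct
Fzd1: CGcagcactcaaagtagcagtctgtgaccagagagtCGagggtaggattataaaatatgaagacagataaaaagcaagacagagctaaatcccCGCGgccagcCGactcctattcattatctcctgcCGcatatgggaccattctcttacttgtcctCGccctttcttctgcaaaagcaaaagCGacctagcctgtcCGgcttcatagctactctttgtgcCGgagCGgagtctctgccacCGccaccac
Fzd7: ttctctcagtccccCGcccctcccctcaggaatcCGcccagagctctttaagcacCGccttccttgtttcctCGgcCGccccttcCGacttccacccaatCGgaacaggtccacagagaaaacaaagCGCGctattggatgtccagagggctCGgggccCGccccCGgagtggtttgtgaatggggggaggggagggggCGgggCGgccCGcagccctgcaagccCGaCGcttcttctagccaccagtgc
Tle3: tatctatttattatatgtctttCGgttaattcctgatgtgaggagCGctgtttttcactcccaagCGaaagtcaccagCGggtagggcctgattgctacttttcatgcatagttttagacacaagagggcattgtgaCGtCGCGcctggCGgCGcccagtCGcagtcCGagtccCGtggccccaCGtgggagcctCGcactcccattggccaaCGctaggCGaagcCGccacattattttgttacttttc

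These windows held 16 CpG dinucleotides in Sfrp2, 12 in Fzd1, 17 in Fzd7 and 17 in Tle3, beside a median of 6 in the same 250 bases over all 32851 promoter windows and of 21 over the 57 windows of the members that had an entry (46 of 66 genes). So all 4 were richer in CpG than the median promoter, and none reached the median of the WNT members. The palindromic progesterone response element, searched on both strands from 250 bases before to 50 after the start, was found in 0.475% of all windows and in none of the 6 changed members with an entry. A single arm of it, searched as TGTTCT on both strands and partly overlapping the full element, was found in 19.0% of all windows; among the changed members it was found once, in Fzd4, on the minus strand 16 bases after the start. The TCF site, searched as CTTTGAT on both strands, was found in 3.73% of all windows and in none of the changed members. These letters were searched in short windows only, and matches or their absence say nothing of binding.

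Frizzleds changed in both directions. Fzd1, a receptor induced in rodent granulosa cells by the ovulatory surge, read 9.36, 9.16, 9.38, 9.19 and 9.30 in PR+/- pools 1 to 5 and 8.26, 8.46, 8.34, 8.23 and 8.25 in PRKO pools 1 to 5. The lowest control pool was thus well above the highest PRKO pool, and the pools of each genotype lay close together (SD 0.10 in both, n = 5 each). Fzd1 was 1.96-fold lower in PRKO (log2 difference -0.97, SE 0.07, 95% interval -1.13 to -0.81, limma adjusted p = 2.47e-06), and its p ranked 26 among all genes.

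Fzd7, a frizzled linked to beta-catenin signalling in epithelial stem cells, moved the other way. It read 8.44, 8.62, 8.16, 8.40 and 8.48 in PR+/- pools 1 to 5 and 8.96, 8.87, 8.85, 8.88 and 9.03 in PRKO pools 1 to 5. Every PRKO pool was above every control pool, and the controls varied more, with pool 3 lowest. The rise was 1.41-fold (log2 difference 0.50, SE 0.08, limma adjusted p = 0.00413).

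Fzd4, the receptor for norrin as well as WNT and the frizzled tied to luteal function in the mouse, read 7.68, 7.36, 7.47, 7.29 and 7.73 in PR+/- pools 1 to 5. In PRKO pools 1 to 5 it read 7.96, 7.74, 7.92, 8.05 and 7.87. The groups did not overlap, but PRKO pool 2 (7.74) and PR+/- pool 5 (7.73) nearly met. The rise was 1.32-fold (log2 difference 0.40, SE 0.09, adjusted p = 0.0395 in limma), and the call was lost without any 1 of 7 pools, PR+/- 2, 3 or 4 or PRKO 1, 3, 4 or 5 (limma adjusted p up to 0.112). It was also lost with the smooth muscle and fibroblast marker mean as a covariate (0.38, adjusted p = 0.0808) and without the least correlated pool of each genotype (0.39, adjusted p = 0.142).

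**Figure D2:**
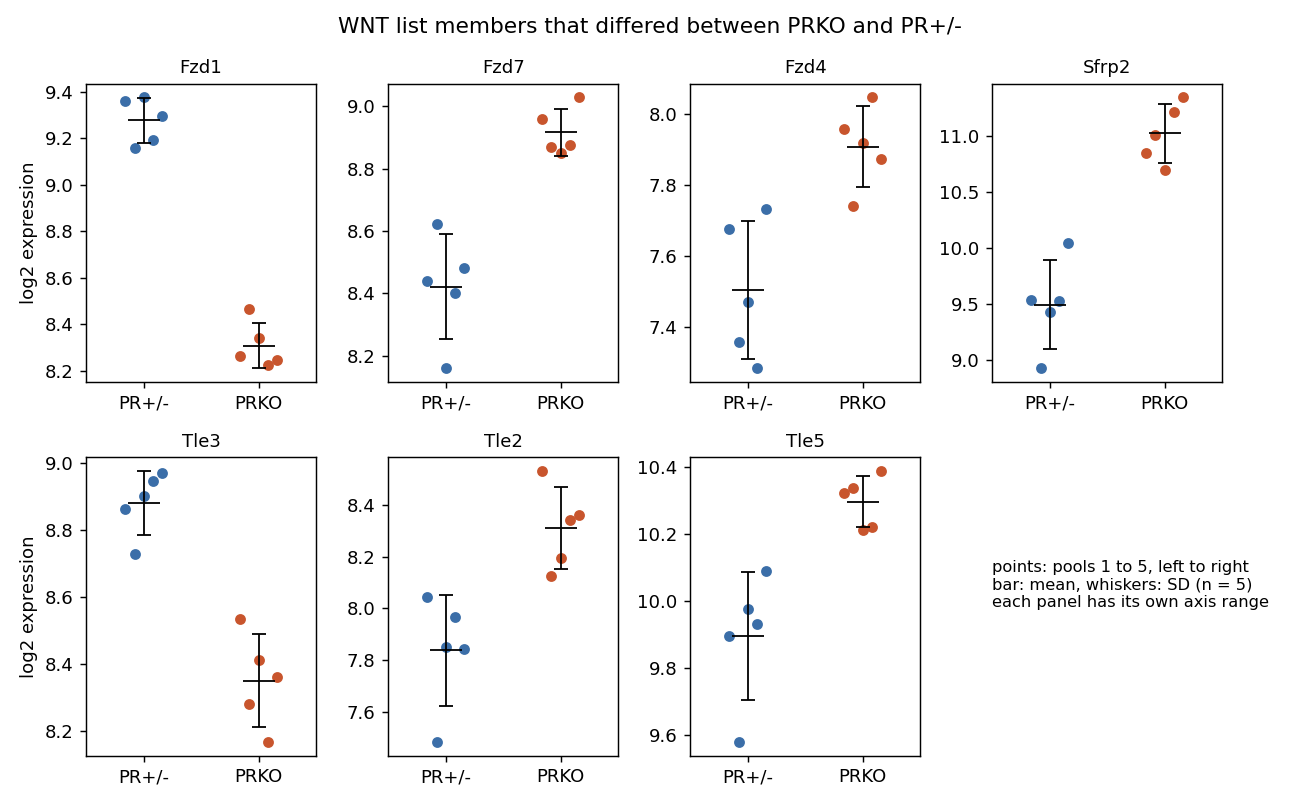
Log2 expression of the 7 members that changed, 1 point per pool (pools 1 to 5 from left to right), with the mean as a bar and the SD as whiskers; each panel has its own axis range. In all 7 the PRKO points lie wholly on one side of the PR+/- points, far apart for Fzd1 and Sfrp2 and nearly touching for Fzd4 and Tle2.

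The other frizzleds did not pass. Fzd2, Fzd5 and Fzd3 had log2 differences of 0.24 (SE 0.08), 0.26 (SE 0.09) and 0.21 (SE 0.08), with limma adjusted p of 0.152, 0.180 and 0.261. The pools of Fzd2 (7.10 to 7.35 in PR+/-, 7.36 to 7.59 in PRKO) and of Fzd3 (9.45 to 9.64 and 9.69 to 10.04) did not overlap, while those of Fzd5 did. Fzd6 stood at -0.22, Fzd9 at 0.13 and Fzd8 at -0.03 on the log2 scale. Fzd10 was read under the background level in both genotypes (means 5.78 and 5.60). Of the 10 frizzleds, 1 thus fell, 2 rose and 7 did not pass, and 5 had pools that did not overlap, beside 2.46% called and 4.42% not overlapping over all genes.

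Co-receptors showed smaller differences. Lrp6, a co-receptor of frizzled for the beta-catenin branch, had pools that did not overlap, 10.20 to 10.35 in PR+/- and 10.05 to 10.19 in PRKO, but a log2 difference of only -0.13 (SE 0.06, limma adjusted p = 0.389). Its partner in that role, Lrp5, stood at 0.03 (95% interval -0.20 to 0.26). The WNT5A receptors Ror1 and Ror2 and the atypical receptor Ryk had log2 differences of 0.08, -0.12 and 0.02, and none passed.

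Among the 11 secreted modulators, Sfrp2 alone passed the test (9.09%, beside 2.46% of all genes), and a single call is no result about the class. An unadjusted p under 0.05 in limma was found for 3 (27.3%), Sfrp2, Dkk3 and Frzb, beside 13.0% of all genes. Sfrp2 read 9.53, 8.92, 9.43, 9.52 and 10.04 in PR+/- pools 1 to 5 and 10.85, 11.01, 10.70, 11.21 and 11.35 in PRKO pools 1 to 5. The groups lay far apart, the highest control pool being 10.04 and the lowest PRKO pool 10.70. Sfrp2 was 2.89-fold higher in PRKO (log2 difference 1.53, SE 0.17, 95% interval 1.16 to 1.90, limma adjusted p = 0.0001).

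Sfrp2 is known from stromal cells as well, so the smooth muscle and fibroblast markers are given beside it. None of those 5 markers passed, all 5 had log2 differences above 0, the direction of Sfrp2 (0.02 in Des to 0.23 in Dcn), Des was under the background level in both genotypes, and their summed log2 level ran from 36.8 to 39.0 in PR+/- and from 36.9 to 41.2 in PRKO. The marker means of PRKO pools 1 to 5 were 7.41, 8.06, 7.67, 8.23 and 7.39. With the mean of these markers as a covariate, the Sfrp2 difference was 1.51 (limma adjusted p = 0.000349). Which cells the Sfrp2 transcripts came from was not tested.

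The other genes of the SFRP family did not pass. Frzb, a frizzled-related antagonist first known from cartilage, had a log2 difference of 0.36 (SE 0.12, limma adjusted p = 0.172), and Sfrp1 one of 0.31 (SE 0.14, adjusted p = 0.388). In both the highest pool was PRKO 4, at 7.32 and 7.29. That pool had the highest smooth muscle and fibroblast, endothelial (7.24) and surface epithelium (7.45) marker means and the lowest granulosa marker mean (10.05). Without that pool the differences were 0.28 for Frzb and 0.18 for Sfrp1. With the smooth muscle and fibroblast mean as a covariate they were 0.28 and 0.20, with the granulosa mean 0.40 and 0.45, and neither gene passed in any of these fits. Sfrp4, a luteal and hCG-responsive gene named here after its values were seen, read 12.62 to 12.85 in PR+/- and 12.62 to 12.92 in PRKO, a difference of 0.11 (95% interval -0.07 to 0.28). Sfrp5 and the WNT inhibitor Wif1 were under the background level in both genotypes.

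No DKK gene passed the test, beside 2.46% of all genes called, which is no result about the DKK family. Dkk3, a divergent member of the family, had a log2 difference of 0.26 (SE 0.08, limma adjusted p = 0.162) with overlapping pools, and it passed only when PRKO pool 5 was left out (adjusted p = 0.0323). Dkk1, the classical LRP antagonist, stood at -0.07, Dkk2 at -0.03 and Dkkl1 at -0.03, and Dkk4 was under the background level.

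No WNT ligand passed the test. With 2.46% of all genes called, 0 of 19 in limma is near the background and is no result about the ligands. By the brightest probe sets, Wnt10a alone had an unadjusted p under 0.05 in limma (13.0% of all genes did). No ligand had pools that did not overlap in those probe sets. The dimmer Wnt4 probe set, given below, differed on both points. Over the brightest probe sets, log2 differences ran from -0.22 for Wnt10a to 0.40 for Wnt5a, with SE of 0.07 to 0.19. Wnt1, Wnt3, Wnt7a, Wnt8a, Wnt8b and Wnt16 were under the background level in both genotypes, so no change in them could be read.

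Wnt10a read 6.60 to 7.07 in PR+/- and 6.56 to 6.83 in PRKO, with overlap (log2 difference -0.22, SE 0.10, limma adjusted p = 0.367). Wnt10b stood at 0.23 (SE 0.14, adjusted p = 0.547), and as in Wnt5a its highest pool was PRKO 4 (7.39). The Wnt10b difference was 0.13 without that pool and 0.11 without PR+/- pool 2. Wnt5b, a close relative of Wnt5a, stood at -0.14 (SE 0.09, limma adjusted p = 0.568). The remaining ligands read above the background level in a genotype, Wnt2, Wnt2b, Wnt3a, Wnt6, Wnt7b, Wnt9a, Wnt9b and Wnt11, had log2 differences from -0.12 in Wnt7b to 0.07 in Wnt2.

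Wnt5a, the prototype of ligands that act without beta-catenin, read 7.33, 6.48, 7.03, 6.63 and 6.91 in PR+/- pools 1 to 5 and 7.23, 7.07, 6.89, 7.96 and 7.20 in PRKO pools 1 to 5. The groups overlapped and the spread was wide, with PRKO pool 4 highest (log2 difference 0.40, SE 0.19, limma adjusted p = 0.394), and the difference was 0.23 without that pool. The granulosa marker mean per pool ran from 10.16 to 10.45 in PR+/- and from 10.05 to 10.79 in PRKO, pool 4 being the lowest. With that mean as a covariate the Wnt5a difference was 0.70 and passed (adjusted p = 0.00228), and with the smooth muscle and fibroblast mean it was 0.32 and did not (adjusted p = 0.513).

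Wnt4, the ligand of ovarian development that granulosa cells also make, was read differently by its 2 probe sets. The brighter one read 7.68 to 8.15 in PR+/- and 7.89 to 8.50 in PRKO, with overlapping pools and a log2 difference of 0.16 (SE 0.12, limma adjusted p = 0.633), which was 0.06 without PRKO pool 4 and 0.09 without PR+/- pool 2. The dimmer one read 7.67, 7.37, 7.65, 7.46 and 7.77 in PR+/- pools 1 to 5 and 7.93, 8.12, 7.81, 8.29 and 8.05 in PRKO pools 1 to 5. Those pools did not overlap, yet its difference of 0.46 (95% interval 0.22 to 0.69) did not pass over all 35557 probe sets (limma adjusted p = 0.0759). In that stricter fit the called members Tle5, Tle2 and Fzd4 did not pass either (limma adjusted p = 0.0736, 0.0859 and 0.0967). Fzd1, Sfrp2, Tle3 and Fzd7 did pass there. The dimmer probe set was not tested in the fit over genes, so its result cannot be set beside the calls made there. Which Wnt4 transcripts each probe set reads is unknown here.

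R-spondins and their receptors raise WNT sensitivity by keeping frizzleds on the cell surface. Among the 9 members of this class none passed in limma, beside 2.46% of all genes, which is no result about the class. An unadjusted p under 0.05 was found for 3 (Lgr4, Znrf3 and Rspo3), beside 13.0% of all genes. Lgr4, the R-spondin receptor, read 10.92, 10.37, 10.38, 10.49 and 10.42 in PR+/- pools 1 to 5 and 10.31, 9.94, 9.80, 10.36 and 10.27 in PRKO pools 1 to 5. The groups did not overlap, though PR+/- pools 2 and 3 lay just above PRKO pool 4 (log2 difference -0.38, SE 0.13, limma adjusted p = 0.190). Znrf3, the ligase that removes frizzleds from the membrane, had pools that did not overlap either, 7.80 to 8.02 in PR+/- and 8.03 to 8.51 in PRKO, with a difference of 0.22 (limma adjusted p = 0.327), or 0.13 without PRKO pool 2.

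Rspo3 and Lgr5 were under the background level in both genotypes. Rspo4 stood at -0.16 and the ligase Rnf43 at -0.06. Rspo1, the ovary-determining R-spondin, had a log2 difference of -0.03 (95% interval -0.20 to 0.14), and Rspo2 and Lgr6 ones of -0.06 and 0.02.

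Beta-catenin and its scaffold proteins did not pass. Ctnnb1 read 11.08 to 11.20 in PR+/- and 11.20 to 11.39 in PRKO. These pools did not overlap but nearly met (11.197 in PR+/- and 11.203 in PRKO), and the log2 difference was 0.15 (SE 0.06, limma adjusted p = 0.331). Axin2, a direct target of beta-catenin and a common readout of the pathway, had a difference of -0.07 (95% interval -0.22 to 0.09), and Axin1 one of -0.04.

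TLE corepressors, the groucho family that binds TCF/LEF factors and many other repressors, held 3 changes among 6 members, beside 2.46% of all genes called. Tle3 read 8.86, 8.73, 8.90, 8.94 and 8.97 in PR+/- pools 1 to 5 and 8.53, 8.28, 8.41, 8.17 and 8.36 in PRKO pools 1 to 5. All PRKO pools lay below all control pools. Tle3 was 1.44-fold lower in PRKO (log2 difference -0.53, SE 0.08, limma adjusted p = 0.00157).

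Tle2 and Tle5 rose. Tle2 read 8.04, 7.48, 7.85, 7.97 and 7.84 in PR+/- pools 1 to 5 and 8.53, 8.12, 8.20, 8.34 and 8.36 in PRKO pools 1 to 5 (log2 difference 0.47, SE 0.11, limma adjusted p = 0.0310). Tle5, a short family member that lacks the WD repeats of the others and can oppose them, read 9.90, 9.58, 9.98, 9.93 and 10.09 in PR+/- pools 1 to 5 and 10.32, 10.34, 10.21, 10.22 and 10.39 in PRKO pools 1 to 5 (0.40, SE 0.09, adjusted p = 0.0285). In both genes the groups did not overlap and PR+/- pool 2 was the lowest of all. Each call was lost without any 1 of 5 pools, PR+/- 3 or 5 or PRKO 1, 4 or 5 for Tle2 (limma adjusted p up to 0.0883) and PR+/- 1 or 4 or PRKO 1, 2 or 5 for Tle5 (up to 0.0736).

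Tle5, Tle2 and Tle6 are neighbours on mouse chromosome 10 in the RefSeq annotation, in that order among measured genes, and the annotated spans of Tle2 and Tle6 overlap. The measured genes on either side, chosen after the TLE values were seen, did not pass. Gna15 and BC025920 were read under the background level in both genotypes (means 5.03 and 4.95, and 5.21 and 5.17), so no change in them could be read. Of the flanking genes above that level, Gna11, which codes a G protein alpha subunit, had a log2 difference of 0.08, and the deacetylase Sirt6 one of 0.17 (limma adjusted p = 0.384). Tle6 itself, which encodes a protein of the subcortical maternal complex in oocytes, had a log2 difference of -0.12 (limma adjusted p = 0.749). Its highest pools, PR+/- 2 and 3 (8.46 and 8.57) and PRKO 2 (8.52), were also the pools with the highest oocyte marker means (9.07, 8.91 and 9.12 against 8.24 to 8.47 in the other pools), none of the 6 oocyte markers differed past the threshold (all 6 had differences below 0), and their part in the Tle6 values was not tested.

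**Figure D3:**
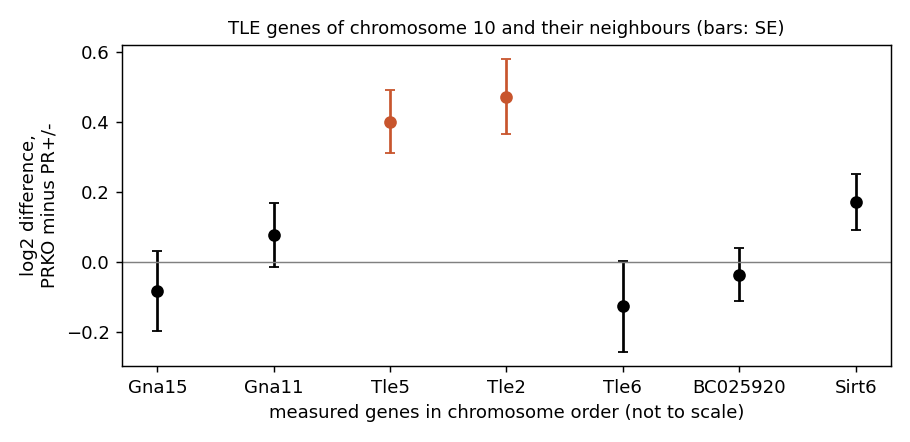
Log2 difference (PRKO minus PR+/-) with SE for the 3 TLE genes of chromosome 10 and the 2 measured genes on each side, in chromosome order and not to scale. Tle5 (0.40) and Tle2 (0.47), in red, rose, and the flanking genes lie between -0.08 and 0.17; Gna15 and BC025920 among them were read under the background level.

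The remaining nuclear factors did not pass. Tle1 had a log2 difference of -0.31 (SE 0.10, limma adjusted p = 0.144) with overlapping pools, and Tle4 one of -0.17. The DNA-binding partners of beta-catenin, Tcf7l2, Lef1 and Tcf7l1, stood at -0.13, -0.12 and -0.02. No member lies within 20 Mb of Pgr, and Tle3 is the only changed member on the same chromosome, number 9.

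Genes of the WNT pathway outside the members were read from 6 lists of 77 genes, all measured, of which 4 passed the test (5.19%, beside 2.46% of all genes), 2 lower (1.71% of all genes) and 2 higher (0.752%). Porcn, the acyltransferase that adds the lipid WNT proteins need for release, read 7.53, 7.30, 7.69, 7.61 and 7.35 in PR+/- pools 1 to 5 and 6.47, 6.69, 6.64, 6.59 and 6.63 in PRKO pools 1 to 5. The groups lay far apart, and Porcn was 1.86-fold lower in PRKO (log2 difference -0.89, SE 0.09, limma adjusted p = 2.41e-05). Gpc4, a glypican that binds WNT at the cell surface, fell 1.35-fold (log2 difference -0.43, SE 0.08, adjusted p = 0.00832), from 11.42 to 11.57 in PR+/- pools down to 10.83 to 11.26 in PRKO pools.

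In the same list of release and removal, 2 of 7 genes thus fell and none rose. Of all genes, 1.71% were called lower and 0.752% higher, and these shares stand beside each list here. A single call in so short a list is no result about the list. Wls, the carrier that brings WNT to the cell surface, had a log2 difference of 0.27 (SE 0.12, limma adjusted p = 0.332), and Notum, which removes the lipid, was under the background level. In the list of other modulators, 1 of 9 rose, Bambi, a pseudoreceptor of the TGF-beta family that also acts on frizzled signalling (log2 difference 0.44, SE 0.08, limma adjusted p = 0.00611). In the planar polarity list, 1 of 13 rose, Prickle2, a cytoplasmic polarity protein (0.52, SE 0.13, limma adjusted p = 0.0427). The Prickle2 call was lost without any 1 of 7 pools, PR+/- 1, 3, 4 or 5 or PRKO 1, 2 or 3 (limma adjusted p up to 0.122). It was also lost with all probe sets tested, with either marker mean as a covariate and without the least correlated pool of each genotype. It held in 11 of 22 alternative fits.

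**Figure D4:**
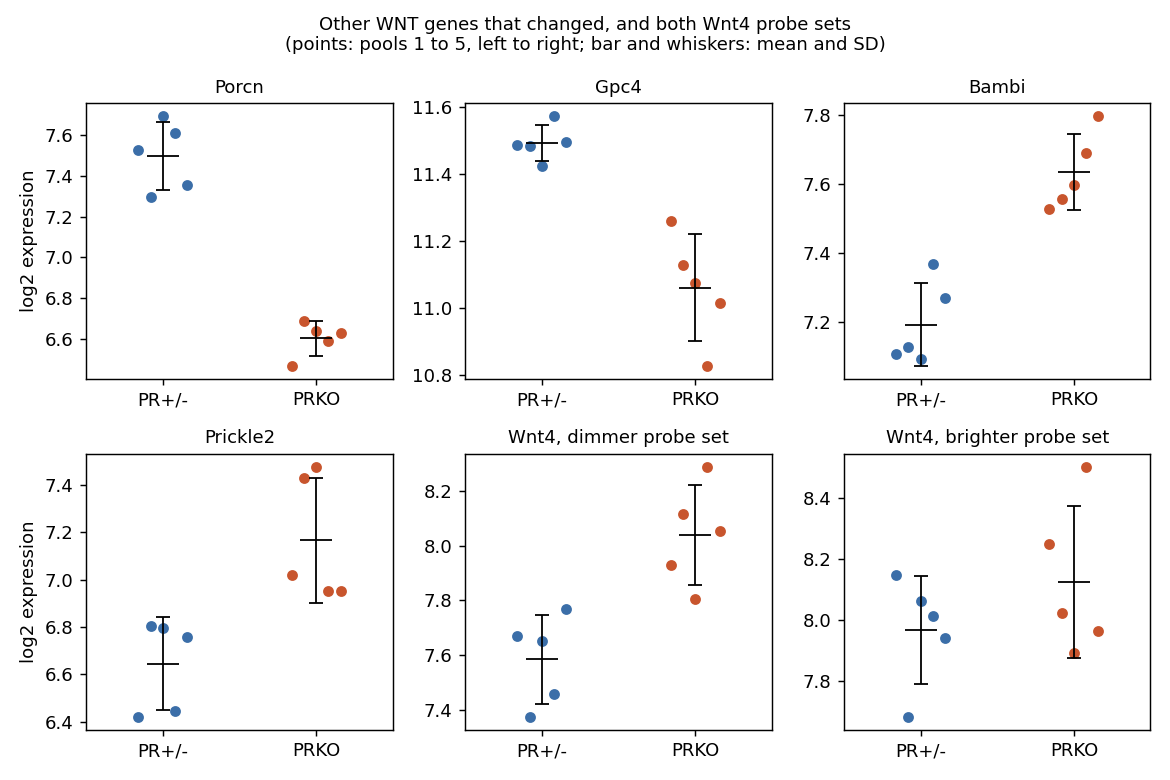
Log2 expression of 4 WNT pathway genes outside the members that changed and of both Wnt4 probe sets, 1 point per pool (pools 1 to 5 from left to right), with mean and SD; each panel has its own axis range. Porcn separates by the widest gap, and of both Wnt4 probe sets the dimmer one alone separates the genotypes.

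The counts in the cytoplasmic machinery, nuclear co-factors and usual targets were near or below the background of 2.46% called and 13.0% at an unadjusted p under 0.05, and are no result about these lists. In limma, 0 of 23 genes of signal transduction passed and 0 had an unadjusted p under 0.05, with all log2 differences between -0.11 (Ccdc88c) and 0.09 (Csnk1e). Among the 11 nuclear co-factors none passed, and the histone acetyltransferase Ep300 was nearest (-0.27, SE 0.07, adjusted p = 0.0520), with pools that did not overlap. Of 16 widely used target genes none passed in limma and 2 had an unadjusted p under 0.05, Fosl1 (-0.37, adjusted p = 0.170) and Bmp4 (0.16, adjusted p = 0.371). The proliferation targets Myc and Ccnd1 stood at -0.02 and 0.04 on the log2 scale.

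**Figure D5:**
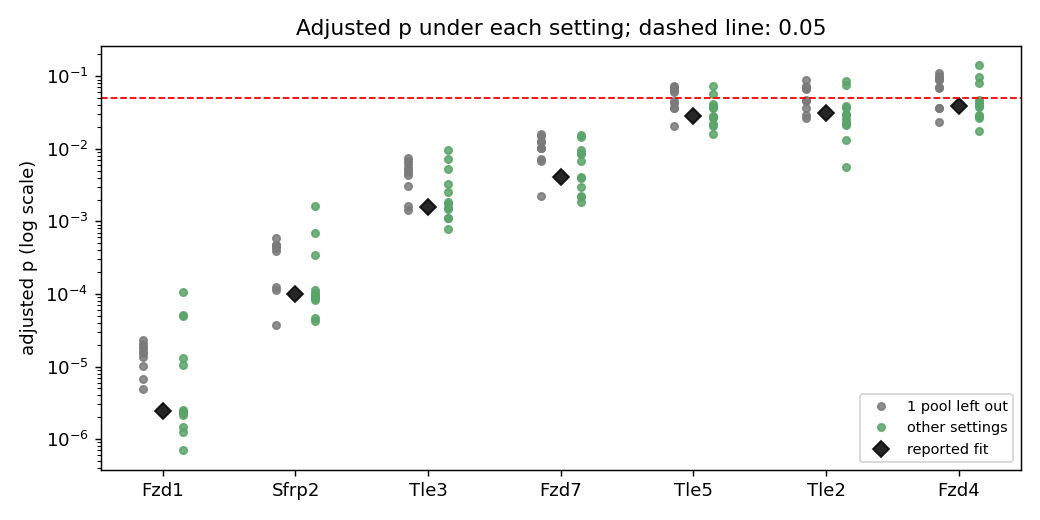
Adjusted p (log scale) of the 7 changed members in the reported limma fit (diamonds), with each pool left out in turn (grey) and under the other settings (green); the dashed line is 0.05. Fzd1, Sfrp2, Tle3 and Fzd7 stay under the line throughout, and Tle5, Tle2 and Fzd4 lie on both sides of it.

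The calls of Fzd1, Sfrp2, Tle3 and Fzd7 were kept in all 22 alternative fits, with limma adjusted p no higher than 0.000106, 0.00162, 0.00956 and 0.0160. Over these fits the log2 difference ran from -1.01 to -0.94 for Fzd1, from 1.39 to 1.71 for Sfrp2, from -0.58 to -0.48 for Tle3 and from 0.43 to 0.55 for Fzd7. For each of the 7 changed members the exact two-sided permutation test over pools gave 0.00794, the smallest p that 5 against 5 pools allows. Any gene whose pools do not overlap gets this value, as did 6 members that were not called. It therefore adds nothing to the separation of pools already given.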

How the data were processed

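Granulosa cell RNA from 10 pools was hybridised as biotinylated cRNA to whole-transcript arrays, per the labels' protocols. The deposited values are log2 expression values per probe set, made by the authors; the submitters' processing notes name Partek, with no steps; background correction, normalization and summarization thus remain unknown here. Of 35557 probe sets, 21789 carried 1 gene symbol, 1621 several and 12147 none. For each gene the one-symbol probe set with the highest mean was kept, leaving 19938 genes. The background level was 5.86, the 95th percentile of 1027 olfactory receptor genes. Precision is limited by the number of pools, as arrays carry no read depth.

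Genotypes were compared by limma 3.58.1 under R 4.3.3 (linear model with empirical Bayes, no covariate), and Benjamini-Hochberg adjustment ran over all genes at a threshold of 0.05. Each difference is log2 PRKO minus log2 PR+/-, with limma's SE and 95% interval, and SD is over 5 pools. Members and lists were chosen with earlier results of these data known. Genes named are the members past the threshold and, per role class, those of smallest p up to 4, and in each other list the genes past the threshold and up to 3 with the smallest p; further genes are given as values to account for every role. Alternatives were array weights, a robust prior, a trend with intensity, quantile normalization, median centring, a replicate block, removal of genes below the 30th percentile, all probe sets or their mean per gene, adjusted p under 0.01, exact permutation and each pool left out. Chosen after seeing the data were marker means as covariates, leaving out the least correlated pool of each genotype (pool 3 in both) and the other Wnt4 probe set. Python 3.11.15 and matplotlib 3.10.9 drew the figures.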

Additional observations from a re-analysis of the deposited data

Results flagged for a closer look

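In 7 of the 60 groups of 5 pools examined (29 members and Pgr in 2 genotypes), 1 pool stood apart from the other 4 by Dixon's test, which chance does in about 1 group in 20. None was in a member that passed the test. PR+/- pool 1 was high in Lgr4 (10.92, the others 10.37 to 10.49), and PR+/- pool 3 was high in Wnt5b (7.09, the others 6.75 to 6.83). PRKO pool 2 was high in Znrf3 (8.51, the others 8.03 to 8.11), PRKO pool 3 in Rspo4 (6.18, the others 5.57 to 5.70) and PR+/- pool 4 in Axin1 (8.23, the others 8.10 to 8.12). Fzd3 had a pool apart in each genotype, PR+/- pool 3 low at 9.45 (the others 9.60 to 9.64) and PRKO pool 5 high at 10.04 (the others 9.69 to 9.78), both in the direction that widens the difference.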

How the results depend on the processing

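The 7 calls among members became 4 (2 lower, 2 higher) with all probe sets tested, at an adjusted p under 0.01, and without the least correlated pool of each genotype; these were Fzd1, Tle3, Sfrp2 and Fzd7 each time. With each pool left out in turn, 4 to 6 members were called, 2 of them lower throughout and 2 to 4 higher, the lowest without PRKO pool 1 (4 called, 2 higher), and 360 to 488 genes overall. Higher calls numbered 3 when the pool left out was PR+/- 3, PR+/- 4, PRKO 4 or PRKO 5. Over all genes, 491 calls became 318 with all probe sets, where more features share the adjustment, and 258 at an adjusted p under 0.01. The other fits left the members' counts within 1.5 times and reversed no named member. Samples share replicate numbers, but same-numbered pools did not deviate together throughout (correlations -0.10 to 0.32), so the numbers were not taken as pairs; with the replicate block, 7 members and 529 genes were called. The pools' origin limits p-values to the spread between these 5 pools per genotype.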
